A study of Mus musculus with 4 samples.

Results

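The activity-regulated immediate early genes described here are Egr1, Egr2, Egr3, Egr4, Fos, Fosb, Fosl2, Junb, Arc and Nr4a1. They were chosen by symbol from the deposited expression table, and all 10 were found, each with 1 array feature, among 19938 genes with a single symbol. RNA of the dorsal cortex, taken from mice before birth (E18.5), was measured on 4 single-colour whole-transcript arrays. The 2 mutants carried Mek1 fl/fl, Mek2 -/- and NestinCre, and the 2 controls carried Mek1 fl/wt and Mek2 -/- with no Cre named in the labels. Per the labels both groups are thus null for Mek2, although the controls are called WT in the design text. Nestin-driven Cre acts in neural progenitors and the cells born from them, so cells of other origin such as microglia and endothelium are not its target. NestinCre was named for the mutants alone, so an effect of the transgene and the loss of Mek1 cannot be told apart.

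Immediate early genes are transcribed within minutes of a stimulus without new protein synthesis, which makes their RNA a widely used record of recent neuronal firing. Calcium entry through synaptic receptors and voltage-gated channels acts through CREB, and the ERK kinases, which MEK1 and MEK2 phosphorylate, act through ternary complex factors such as ELK1 bound with SRF. The comparison addresses whether these genes, which stand at the end of an ERK-fed route, differ in the late embryonic cortex of embryos that are Mek1 fl/fl, Mek2 -/- with NestinCre. Most of the products are transcription factors, while Arc acts at the synapse.

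The 10 genes were mostly dim, and no difference between mutants and controls passed the test. In the limma fit 0 of the 9 members tested passed at an adjusted p under 0.05, where 1.02% of the 13956 genes tested passed (1.01% lower and 0.0143% higher in the mutants). At an unadjusted p under 0.05 there were 2 members, Arc and Fosl2, both higher in the mutants, where 13.4% of the genes tested lay under that value. The member means were higher in the mutants for 5 genes and lower for 5. The median difference of the 9 tested was 0.05 on the log2 scale (mutant minus control), beside 0.01 for all genes tested. Over the 9, the 95% intervals of the fold change in array value ran between 0.752-fold and 1.41-fold, and larger changes lay outside every interval. The intervals bound the array value and not the transcript, as differences near array background, described below, are compressed towards 0. Among the 9, Fos lay above the 95th percentile of background features on 1 array and Junb on 0. Egr2, whose mean lay under the filter on dim genes (log2 6.16), was not tested in that fit.

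The labelled tissue was checked against its markers. All 8 measured markers of the dorsal telencephalon, Emx1 and Tbr1 among them, lay above the array background on all 4 arrays, while 5 of 6 measured Hox genes lay above it on no array. The exception was Hoxb3, at 6.90 and 6.68 in mutants and 6.85 and 6.82 in controls. The targeted gene Map2k1 (Mek1) was at 8.50 and 8.73 in mutants and 8.76 and 8.84 in controls, and its difference of -0.19 did not pass (limma, adjusted p = 0.469). Map2k2 (Mek2) was at 8.57 and 8.64 in mutants and 8.57 and 8.47 in controls, above the array background on all 4 arrays, so its values do not show the loss that the labels give. Where the probes of both genes lie relative to the deleted exons is not known here, so these features check neither deletion. The 2 arrays of each group come from different embryos, as their sex-linked genes show. No source says whether these embryos are from separate litters, so p-values measure the spread between these samples.

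Elements of both routes were looked for in the promoters of these genes. The search covered 7 of the members, with 11 start sites in the RefSeq promoter table (build GRCm38.p6), and used the 250 bases before each start. Arc and Egr3 have no entry there. Egr1 was left out of the search by choice, so whether its promoter holds these elements was not tested. The letters TGACG, the core of the CREB-binding cAMP response element, were sought on both strands, as was the CArG box bound by SRF. At least 1 start of 6 of the 7 genes searched held TGACG, against 19.8% of the 27025 genes in the table. Of the same 7, 1 gene, Egr2, held a CArG box, against 1.62%. The AP-1 site TGACTCA, to which FOS and JUN dimers bind, was in 0 of the 7, against 5.16%. The first 2 elements did not overlap in any of these windows. Fos and Nr4a1 are shown because they hold TGACG, Egr2 because it holds both elements, and Fosl2 because it holds neither and had the largest difference of the 10. Capitals mark both elements, with matches on the other strand shown as they read on this one, and each run ends at the base before the start site.
Fos: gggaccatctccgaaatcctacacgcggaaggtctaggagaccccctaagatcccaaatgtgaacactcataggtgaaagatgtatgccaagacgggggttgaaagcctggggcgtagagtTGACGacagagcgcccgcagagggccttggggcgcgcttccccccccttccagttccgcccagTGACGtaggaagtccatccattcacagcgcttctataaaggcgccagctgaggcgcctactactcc
Nr4a1: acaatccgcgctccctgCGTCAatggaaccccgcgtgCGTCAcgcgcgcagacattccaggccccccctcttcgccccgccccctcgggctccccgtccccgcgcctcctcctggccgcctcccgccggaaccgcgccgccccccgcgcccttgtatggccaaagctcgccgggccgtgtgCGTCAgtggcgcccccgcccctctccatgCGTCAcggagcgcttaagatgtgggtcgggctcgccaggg
Egr2: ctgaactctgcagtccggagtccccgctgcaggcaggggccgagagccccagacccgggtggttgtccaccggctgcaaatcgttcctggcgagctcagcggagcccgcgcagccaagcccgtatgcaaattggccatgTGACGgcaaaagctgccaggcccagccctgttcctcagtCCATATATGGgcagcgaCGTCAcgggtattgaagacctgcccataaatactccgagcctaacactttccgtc
Fosl2: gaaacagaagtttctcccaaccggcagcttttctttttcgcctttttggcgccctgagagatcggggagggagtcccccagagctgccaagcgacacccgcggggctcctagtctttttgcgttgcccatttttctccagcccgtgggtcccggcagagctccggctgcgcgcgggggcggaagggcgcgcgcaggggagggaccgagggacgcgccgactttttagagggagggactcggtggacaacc

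These windows are chr12:85473640-85473889 for Fos, chr15:101266596-101266845 for Nr4a1, chr10:67537619-67537868 for Egr2 and chr5:32136222-32136471 for Fosl2, all on the plus strand. Of the 5 starts listed for Egr2, 3 overlapping windows hold both elements, and 1 of these is shown. A match describes letters in this window, and its absence says nothing of elements further upstream.

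Array background was gauged from 1307 features of olfactory, vomeronasal and trace amine receptors, hair keratin proteins and beta-defensins, most of which cortex is not known to express. Their 95th percentile was at 6.45 and 6.30 in mutants and 6.32 and 6.35 in controls, and their median lay between 4.32 and 4.39. Of the members, 7 lay above that 95th percentile on all 4 arrays, Fos on 1 array, and Egr2 and Junb on none. A level near this line may be background in part, and a difference there is compressed towards 0.

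**Figure D1:**
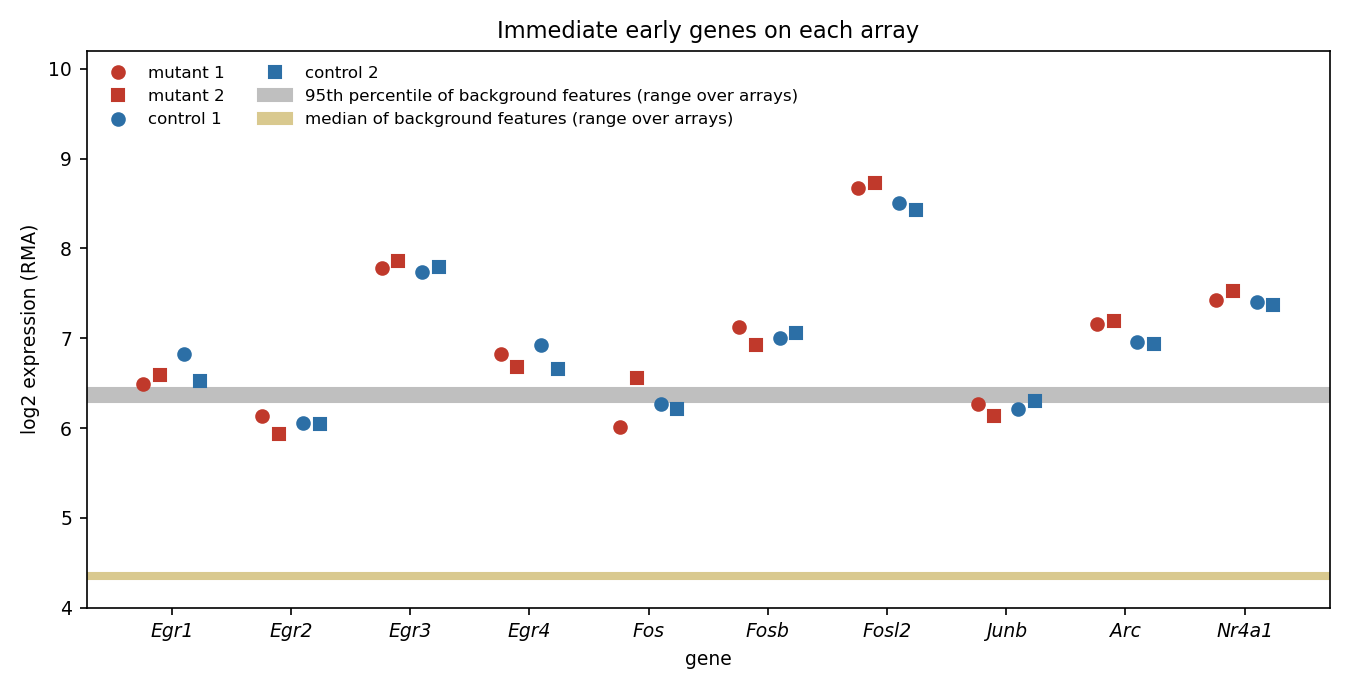
Log2 expression (RMA) of each of the 10 genes on the 2 mutant arrays (red, left) and the 2 control arrays (blue, right). The grey band spans the 95th percentile of background features over the arrays (6.30 to 6.45) and the tan band their median. Egr2 and Junb lie at or under the grey band on every array, and Fos straddles it. Arc, Fosl2 and, by a small margin, Nr4a1 have both mutant points above both control points.

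The Fos and Jun proteins pair to form AP-1. Fos, the founding member and the most used marker of recently active cells, was at 6.01 and 6.56 in mutants and 6.27 and 6.21 in controls. Mutant 2 was the highest and mutant 1 the lowest of the 4, so the groups overlapped. The difference was 0.05 ± 0.18 (SE; limma adjusted p = 0.948), with an interval of 0.760-fold to 1.41-fold. Without mutant 1 the Fos difference was 0.32, and without mutant 2 it was -0.22. Fosb, whose product has a long-lived truncated form that builds up with repeated activity, was at 7.12 and 6.93 in mutants and 7.00 and 7.05 in controls. The Fosb controls lay between the mutants, and the difference was -0.0029 ± 0.081 (SE; limma adjusted p = 0.996).

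Fosl2, which encodes FRA-2, a slower Fos family member that lacks the strong activation domain of FOS, was at 8.67 and 8.73 in mutants and 8.50 and 8.43 in controls. Both mutants lay above both controls, by more than the gap between arrays of either group. The mutants were at 1.17-fold of controls (difference 0.23 ± 0.06 SE, 95% interval 1.06-fold to 1.31-fold), which did not pass in limma (adjusted p = 0.213). Junb, a Jun family member that in many settings opposes JUN, was at 6.26 and 6.13 in mutants and 6.21 and 6.30 in controls. No Junb value reached the 95th percentile of background on its array. Its difference was -0.06 ± 0.07 (SE; limma adjusted p = 0.798).

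The EGR proteins are zinc finger transcription factors that share a GC-rich target sequence. Egr1, also called Zif268, which is linked to synaptic plasticity and memory, was at 6.49 and 6.59 in mutants and 6.82 and 6.53 in controls. Control 1 stood above the other arrays, and the other 3 lay within 0.10 of each other. The difference was -0.13 ± 0.11 (SE; limma adjusted p = 0.667), and without control 1 it was 0.012. Egr4 had the same array on top: it was at 6.82 and 6.68 in mutants and 6.93 and 6.65 in controls, with a difference of -0.04 ± 0.11 (SE; limma adjusted p = 0.930). Without control 1 the Egr4 difference was 0.10, and without mutant 2 it was 0.03.

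Egr3, which is induced by neurotrophins and by activity and shares many targets with Egr1, was at 7.78 and 7.86 in mutants and 7.74 and 7.80 in controls. The groups interleaved, and the 4 values spanned 0.12. The difference of 0.05 ± 0.06 (SE; limma adjusted p = 0.789) had an interval of 0.932-fold to 1.15-fold. Egr2, known as Krox20 for its part in hindbrain segments and Schwann cell myelin, was at 6.13 and 5.93 in mutants and 6.05 and 6.05 in controls. All 4 Egr2 values were under the 95th percentile of background. In the fit without a filter its difference was -0.02 ± 0.09 (SE; limma adjusted p = 0.973).

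Arc, whose protein drives the removal of AMPA receptors from synapses and forms capsids that carry RNA, was at 7.16 and 7.20 in mutants and 6.96 and 6.93 in controls. Both mutants lay above both controls, and the 2 arrays of each group differed by no more than 0.04. The mutants were at 1.17-fold of controls (difference 0.23 ± 0.06 SE, 95% interval 1.06-fold to 1.29-fold), which did not pass in limma (adjusted p = 0.187). Nr4a1, the orphan nuclear receptor NUR77, was at 7.42 and 7.53 in mutants and 7.41 and 7.37 in controls. The Nr4a1 mutants lay above the controls by less than the gap between the 2 arrays of either group, and the difference was 0.09 ± 0.06 (SE; limma adjusted p = 0.628).

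Both mutants were above both controls in 3 of the 10 genes (Fosl2, Arc and Nr4a1), both were below in 0, and the groups overlapped in 7. Over the genes tested, 22.8% had both mutants higher, 21.4% had both lower and 44.3% in all had groups that did not overlap. The absolute differences of Fosl2 and Arc exceeded those of 90.9% and 90.7% of the genes tested, and no other member was past 76.3%. With its own spread, Arc would have needed a difference of 0.42 to pass and Fosl2 one of 0.46, whereas Fos would have needed 1.33, Egr1 0.82 and Egr4 0.82. As a fold, the change needed lay between 1.34 and 1.46 for Arc, Egr3, Fosl2, Nr4a1 and Junb, and between 1.53 and 2.52 for Fosb, Egr4, Egr1 and Fos.

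**Figure D2:**
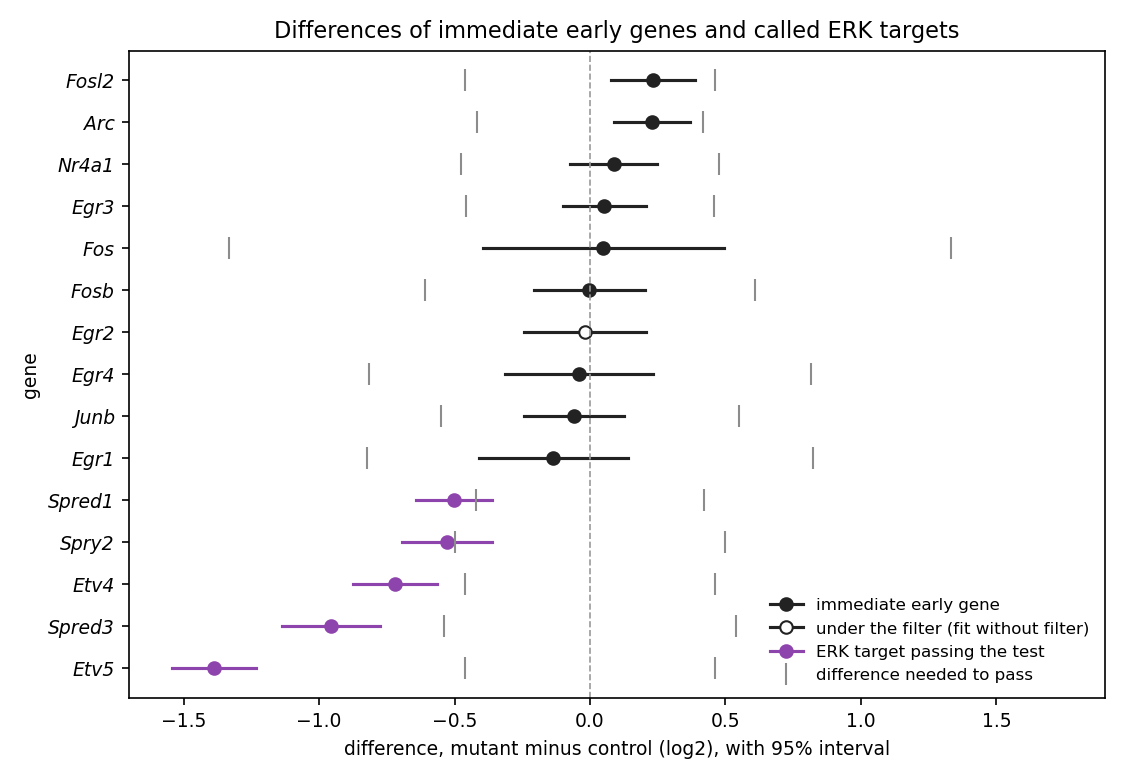
Difference, mutant minus control (log2), with its 95% interval for the 10 immediate early genes (black; open circle for Egr2, from the fit without a filter) and for the 5 ERK targets that passed (purple). Grey ticks mark the difference each gene would have needed to pass given its own spread. The member points lie inside their ticks, and Etv5 at -1.39 lies far outside.

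The members did not move as 1 block across the arrays. Mutant 2 held the highest value of 5 members, mutant 1 of 2, control 1 of 2 and control 2 of 1. The largest gap within a group was that of Fos between the mutants, 0.55, which exceeded the mutant gap of 99.0% of the 1147 tested genes within 0.25 of its level. The Fos gap between the controls was 0.06. Egr1 and Egr4 instead differed between the controls, by 0.29 and 0.27, more than 93.8% and 92.7% of the genes of like level, and by 0.10 and 0.14 between the mutants. Arc lay at the other end, with a gap larger than in only 16.2% of the genes of like level between the mutants and 18.2% between the controls. The 5 genes with the values closest to Fos over the 4 arrays, after centring, were Zfp119a, Rcan2, Gamt, Lrig3 and F730043M19Rik, at a root mean square distance of 0.04 to 0.05. With 4 arrays many genes can fall this close, and none of the other members was among them.

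**Figure D3:**
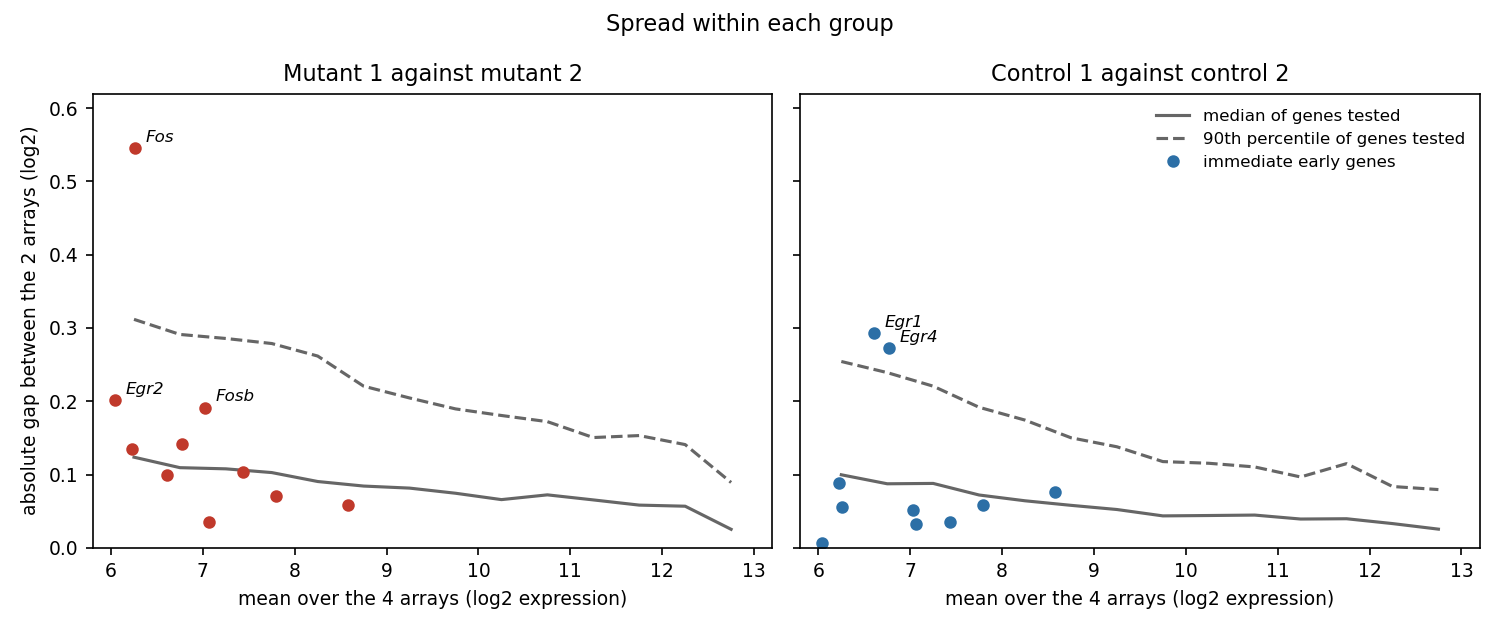
Absolute gap between the 2 arrays of a group (log2) against mean level, for the mutants (left) and the controls (right). Points are the 10 genes, and lines are the median and the 90th percentile of the genes tested in level bins. Fos stands out between the mutants at 0.55, and Egr1 and Egr4 between the controls at 0.29 and 0.27.

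A further 33 immediate early genes were measured, of which 29 were tested. None passed in limma at an adjusted p under 0.05, and the median difference was -0.06. An unadjusted p under 0.05 was seen in 7 of the 29, against 13.4% of the genes tested. The mutant mean was lower in 20 of the 29 and higher in 9. Klf6, a zinc finger factor induced by injury and growth factors, was at 9.98 and 9.89 in mutants and 9.50 and 9.48 in controls, a difference of 0.44 ± 0.06 (SE). It missed the threshold (limma, adjusted p = 0.0517) and passed with each array centred on its median (adjusted p = 0.0498), with a filter at the 50th percentile (adjusted p = 0.0337) and with an intensity trend (adjusted p = 0.0190). It also passed without mutant 1 (adjusted p = 0.0492) and without mutant 2 (adjusted p = 0.0119). It did not pass without a filter, after further quantile normalization, with the replicate block, with embryo sex as a covariate, or without control 1 or control 2. Klf2, a related factor best known from endothelium, was at 7.65 and 7.89 in mutants and 7.35 and 7.41 in controls (difference 0.39, limma adjusted p = 0.186). It passed without mutant 1 (0.51, adjusted p = 0.0246). With all 4 arrays Ccn1, a secreted matrix protein, differed by -0.36 (limma adjusted p = 0.193). Btg2, an antiproliferative cofactor, differed by -0.23 (limma adjusted p = 0.440). Without mutant 2 the difference was -0.48 for Ccn1 and -0.37 for Btg2. Those 2 were named after their values were seen.

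The effector genes that neurons switch on with activity had a median difference of -0.03, and 0 of 15 tested passed in limma. Of these 15, 3 had an unadjusted p under 0.05, against 13.4% of the genes tested. Vgf, a secreted neuropeptide precursor, was at 6.79 and 6.95 in mutants and 7.24 and 7.45 in controls, a difference of -0.47 (limma adjusted p = 0.131). Nptx2, a pentraxin that gathers AMPA receptors, differed by -0.28 (adjusted p = 0.188). Inhba, the activin A subunit, was at 8.91 and 8.47 in mutants and 8.24 and 8.03 in controls, a difference of 0.56 (limma adjusted p = 0.236). The differences of these 3 genes thus ran in both directions. Without mutant 2 the number that passed was 6, namely Vgf, Nptx2, Rgs4, Nrn1 and Sst as lower and Inhba as higher. Rgs4, Nrn1 and Sst were named after their values were seen. In that fit 881 genes passed over the whole table, against 143 with all 4 arrays.

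Genes of the factors that act on immediate early promoters, such as ternary complex factors, CREB and its coactivators, MEF2 and the RSK and MSK kinases, had a median difference of 0.03. None of the 18 tested passed in limma, and 2 had an unadjusted p under 0.05, against 13.4% of the genes tested. Elk3, a ternary complex factor, was at 7.33 and 7.46 in mutants and 7.84 and 7.69 in controls (difference -0.37, limma adjusted p = 0.152). Camk4, a calcium-dependent kinase of CREB, was at 8.56 and 8.73 in mutants and 9.04 and 8.91 in controls (difference -0.33, limma adjusted p = 0.208). Without mutant 2 the difference was -0.43 for Elk3 and -0.41 for Camk4. Among the partners and corepressors of the products, 0 of 8 tested passed (limma; 0 had an unadjusted p under 0.05). Jun, the main partner of FOS, differed by -0.13 (adjusted p = 0.667), Nab1, a corepressor of EGR proteins, by 0.19 (adjusted p = 0.650) and Maf, a bZIP factor, by 0.12 (adjusted p = 0.535).

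Some feedback and target genes of ERK fell on the same arrays. Of 17 tested, 5 passed as lower and none as higher in limma, 12 did not pass, and the median difference was -0.43, beside 0.05 for the immediate early genes. An unadjusted p under 0.05 was seen in 15 of the 17, against 13.4% of the genes tested. Both mutants lay below both controls in 16 and above them in 1, against 21.4% and 22.8% of the genes tested. This list holds genes already known to be lower in these arrays, so its direction is not independent evidence. Etv5, an ETS factor induced by ERK, was at 7.28 and 7.27 in mutants and 8.71 and 8.61 in controls and fell to 0.382-fold (limma, adjusted p = 0.00538). Spred3, Etv4, Spry2 and Spred1 fell to between 0.515-fold and 0.706-fold (limma, adjusted p between 0.0185 and 0.0427). Etv5 was the only one of the 5 to pass without control 1 or without control 2, and it alone passed without a filter on dim genes or with embryo sex as a covariate. The median difference of the list was -0.42 without mutant 1 and -0.50 without mutant 2. The intervals of Etv5 (0.344-fold to 0.425-fold), Spred3 (0.455-fold to 0.584-fold) and Etv4 (0.545-fold to 0.676-fold) did not meet that of any tested immediate early gene. Those of Spry2 (0.618-fold to 0.779-fold) and Spred1 (0.640-fold to 0.778-fold) overlapped those of Egr1 and Fos. These 5 were compared because they passed on these arrays, which favours separation. Among the 12 that did not pass, only Dusp4 (0.438-fold to 0.722-fold) and Ccnd1 (0.482-fold to 0.738-fold) had intervals below those of every tested immediate early gene. The intervals of the others, such as Spry1 (0.776-fold to 0.999-fold), overlapped that of Egr1. No test of the difference between the lists was made.

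**Figure D4:**
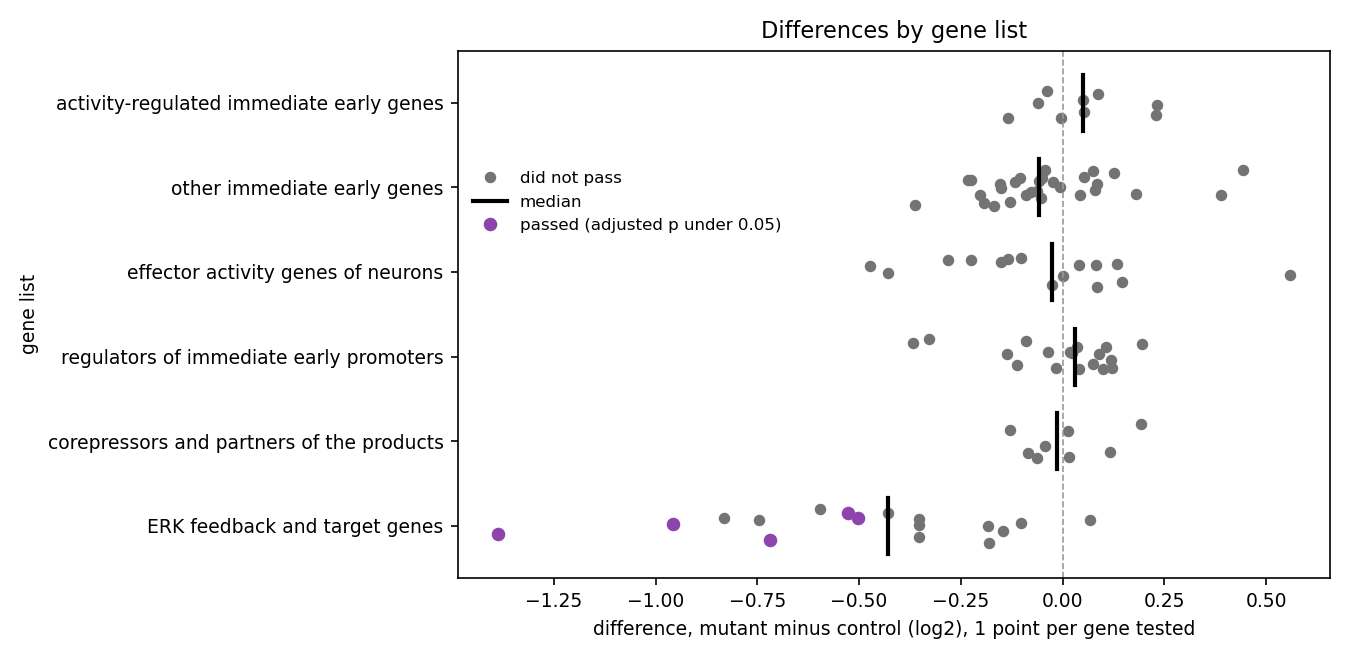
Difference, mutant minus control (log2), of each gene tested in 6 lists, with the median of each list as a black bar and genes that passed the test in purple. The immediate early genes centre on 0.05, and the ERK feedback and target genes on -0.43 with the 5 genes that passed.

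Markers of some cell types differed between the groups. Of 8 astrocyte and radial glia markers 6 passed as lower (limma, adjusted p under 0.05), and of 6 markers of oligodendrocyte precursors 3 did. At an unadjusted p under 0.05 there were all 8 of the first and 5 of the 6 others, where 13.4% of the genes tested lay under that value. The median difference of the astrocyte and radial glia markers was -1.48. That of the precursor markers was -1.40, and 1 of the 6, Cspg4, had a higher mutant mean. Only 2 of the 6 lay above the array background on all 4 arrays. The others, Pdgfra, Olig1, Olig2 and Gpr17, lay above it on both control arrays but not on both mutant arrays. Their differences may thus be compressed towards 0. Microglia markers had a median of -0.26 with 0 of 6 tested passing in limma (4 had an unadjusted p under 0.05), and endothelial markers had a median of -0.01 with 0 of 6 passing (0 at an unadjusted p under 0.05). The median level of the 8 astrocyte and radial glia markers was 8.67 and 8.85 in mutants and 10.57 and 10.54 in controls. Their part in the differences of the immediate early genes was not tested. In whole tissue, fewer cells of a type and less RNA per cell cannot be told apart, and a change in a few active cells could be lost in the rest.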

How the data were processed

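Total RNA (200 ng per array) from E18.5 dorsal cortex was labelled with biotin for whole-transcript arrays, per the labels. The deposited values are log2 expression made by the authors with RMA (background correction, quantile normalization, summary to 1 value per feature), per the submitters' processing notes; for the RMA version and the annotation's build there is no statement, and log base 2 follows from the value range. RMA brings arrays to 1 distribution, so a shift shared by most genes is removed. Array medians lay between 7.11 and 7.13. No scanner flag for signal over background was used.

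Of 35557 features, 21789 have 1 symbol, 1621 several, and 12147 are not listed in the platform annotation. Symbols were updated by Entrez identifier (21698 matched). The brightest feature per gene was kept, and 13956 of 19938 genes at or above the 30th percentile of the mean over the arrays were tested with limma 3.58.1 in R 4.3.3 (lmFit, eBayes, no covariate, Benjamini-Hochberg over all genes tested, two-sided). The fit had 2 residual and 3.31 prior degrees of freedom. The difference needed to pass is the moderated SE times the t value of the largest unadjusted p that passed (0.000500). On simulated data for the mutant and control comparison over the 13956 genes, differences of 0.5 and 1 (log2) were recovered in 53.6% and 95% of cases. The simulated spread did not depend on level. On the arrays dim genes spread more, with a median gap between mutants of 0.124 at log2 6 to 6.5 and 0.084 at 8.5 to 9. These shares thus do not give the recovery for dim members. In each group 1 array showed Xist and the other Y-linked genes, so the arrays of a group come from different embryos, and this sex served as a covariate in 1 alternative. The members, lists, tests and alternatives were chosen with earlier results of these data known. Named genes are the members, Map2k1 and Map2k2, the genes of each list that passed or, where none passed, the 2 with the smallest p and the 2 with the largest difference, and the 5 profiles nearest to the member with the widest range.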

Additional observations from a re-analysis of the deposited data

How the results depend on the processing

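None of the 9 tested members was called under any of the 11 other settings in which it was tested, and the smallest adjusted p was 0.105 (Fos without mutant 1). The signs of Arc, Fosl2, Nr4a1 and Egr3 held under each of them. Fosb was at 0.0092 with arrays centred on their medians and at 0.033 after further quantile normalization. With 1 array left out, differences ran from -0.28 to 0.012 for Egr1, -0.18 to 0.097 for Egr4, -0.22 to 0.32 for Fos, -0.099 to 0.093 for Fosb and -0.13 to 0.0074 for Junb. The members above background on all 4 arrays numbered 7 with olfactory receptor features alone too. The 143 genes called (141 lower, 2 higher) became 15 (15, 0) without a filter, 238 (217, 21) with an intensity trend and 17 (17, 0) with sex as a covariate. Calls in the higher direction were 11 under the stricter filter, 4 with centring and 1 after quantile normalization. With 1 array left out, calls ran from 9 to 881 (9 to 731 lower, 0 to 150 higher), and 3-array fits take the lone array to vary like the other group. ERK targets called numbered 1 without a filter, 10 with a trend and 1 with sex as a covariate, and 1 to 11 with an array left out. Of the other immediate early genes, 1 was called under the stricter filter, centring or the trend, and 0 to 3 with an array left out; effector genes gave 0 to 6 and regulators 0 to 2. Samples share only a replicate number: with the replicate block, 116 genes, 0 members and 3 ERK targets were called. The deviations of same-numbered samples had a weak negative correlation (-0.158 over genes). Crossed pairing, added after seeing the data and identical to the sex covariate here, gave 17 genes, 0 members and 1 ERK target. The mean of several features per gene was not run, because each member has 1 feature. The cause of these shifts was not tested.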
